A study of Mus musculus with 7 samples.

Results

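The mitochondrial carrier family Slc25 was followed in the transcriptomes of mouse megakaryocyte progenitors (MkPs), cells committed to becoming the megakaryocytes that shed platelets. Its members were taken from the deposited gene table as every protein-coding gene whose symbol is Slc25a followed by a number, which gave 43 genes of 21615 in the table. They lie on 18 chromosomes, 4 of them (Slc25a5, Slc25a14, Slc25a43 and Slc25a53) on the X chromosome. Slc25a18, Slc25a31, Slc25a48 and Slc25a54 were not analysed here.

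The MkPs were sorted from the bone marrow of wild-type C57BL/6 mice (C57Bl/6JRj is the wild-type substrain named in the methods) as lineage-negative cells that carried CD117, CD150 and CD41 and lacked Sca-1, and were split by CD48, a SLAM family protein of the cell surface. CD48-/lo MkPs gave 3 libraries (replicates 1, 3 and 4) from 5348 to 6497 cells each, and CD48hi MkPs gave 4 libraries (replicates 1, 3, 4 and 5) from 14033 to 20826 cells each. No treatment separates the groups, no age is given for these samples beyond the range of adult ages that the methods state for the study's mice in general, and nothing in the labels ties each library to its own mouse, so p-values measure the spread between these libraries, which may be technical. The study assigns the subsets to different paths of platelet formation, CD48-/lo MkPs to a direct path from stem cells and CD48hi MkPs to the conventional one, and the comparison asks how their transcripts differ.

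Mitochondria need carriers because their inner membrane lets few charged molecules pass. Slc25 proteins share a fold made of repeated pairs of membrane-spanning helices, and most of them exchange a metabolite of the matrix for one of the space outside the inner membrane. They are encoded by nuclear genes and made in the cytosol, and those of the inner membrane are inserted by the TIM22 translocase. The family serves ATP export, phosphate uptake, the citrate and malate shuttles, and amino acid and cofactor transport. In red cell precursors it also serves the supply of iron and glycine for heme.

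Levels are given as CPM, each gene's count relative to the library total after TMM scaling, and where genes are compared with each other as CPM per kb of the gene length in the deposited table. All log2 differences are CD48-/lo minus CD48hi with their standard error (SE), from the edgeR quasi-likelihood test over 16653 genes, and adjusted p-values are Benjamini-Hochberg values over those genes. Values of single libraries follow the order of the replicates, 1, 3 and 4 for CD48-/lo and 1, 3, 4 and 5 for CD48hi. In bulk libraries fewer cells of a type and less RNA per cell cannot be told apart.

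The total count per library was 48899037 to 51161449 in CD48-/lo and 51537445 to 69324909 in CD48hi MkPs. Cd48 transcripts averaged 10.1 ± 4.65 CPM in CD48-/lo and 28.9 ± 11.8 CPM in CD48hi MkPs, and megakaryocyte genes were abundant in both groups, with summed levels of 8 marker genes of 3000 to 5739 CPM in CD48-/lo and 2783 to 4220 CPM in CD48hi MkPs. Of 8 granulocyte and monocyte progenitor markers 2 (Mpo and Irf8) were called lower in CD48-/lo MkPs by edgeR. The 8 summed to 58.6 to 145 CPM in CD48-/lo and 402 to 589 CPM in CD48hi MkPs. Mpo supplied most of the CD48hi sum, with 18.3 to 59.5 CPM in CD48-/lo and 218 to 414 CPM in CD48hi MkPs. Ms4a3 alone of this list had a fitted difference above 0 (0.22, edgeR adjusted p = 0.777). Of 6 basophil and mast cell markers 1 (Mcpt8) was called lower, and Mcpt8 was at 0 in CD48-/lo replicates 1 and 3. Gata2, which stem cells and megakaryocyte progenitors also express, supplied most of that list's sum, with 145 to 207 CPM in CD48-/lo and 221 to 688 CPM in CD48hi MkPs, and the other 5 markers summed to 9.21 to 26.1 CPM in CD48-/lo and 42.2 to 118 CPM in CD48hi MkPs, while Fcer1a alone had a fitted difference above 0 (1.10, edgeR adjusted p = 0.314). Of 12 erythroid markers 3 (Rhd, Hba-a1 and Hba-a2) were called higher by edgeR and 8 were called by DESeq2, and 10 had fitted differences above 0, 9 of them at an unadjusted p of 0.05. These 10 summed to 96.6 to 225 CPM in CD48-/lo and 10.5 to 27.4 CPM in CD48hi MkPs, while Klf1 and Epor, which held the highest mean CPM of the list, had differences of -0.71 and -0.47 and together summed to 95.7 to 138 CPM in CD48-/lo and 139 to 234 CPM in CD48hi MkPs. Over all genes tested edgeR called 0.192% and DESeq2 5.52%, and 8.37% were higher in CD48-/lo MkPs at an unadjusted p of 0.05 (edgeR). The 6 B and T cell markers, 3 of them in the table, summed to 0.509 to 0.668 CPM in CD48-/lo and 0.648 to 1.09 CPM in CD48hi MkPs. The part of these cell types in the values below was not tested.

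No Slc25 gene was called different between the subsets. Of the 43 genes 41 passed the filter on low counts and were tested, and edgeR called 0 of them at an adjusted p of 0.05, where 32 of 16653 genes (0.192%) were called in all. DESeq2 also called 0 of the 41, against 918 of 16616 genes (5.52%). At an unadjusted p of 0.05 stood 10 carriers (24.4% of those tested), against 17.2% of all genes, 2 of them higher (8.37% of all genes were) and 8 lower (8.87% of all genes were) in CD48-/lo MkPs.

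Groups that did not overlap were seen for 6 carriers (14.6%), the same share as among all genes (14.6%). Of these, 2 carriers, Slc25a5 and Slc25a12, lay higher in every CD48-/lo library (7.52% of all genes did), and 4, Slc25a11, Slc25a27, Slc25a38 and Slc25a51, lay lower (7.06% of all genes did). The fitted difference was below 0 for 26 carriers (63.4%), against 48.3% of all genes, and the median log2 difference was -0.31 for the carriers and 0.03 for all genes tested. Leaving out 1 library at a time gave a median of -0.45 to -0.16, the value nearest 0 without CD48hi replicate 4. The number of carriers at an unadjusted p of 0.05 was then 4 without CD48hi replicate 4, 4 without CD48hi replicate 5, 2 without CD48-/lo replicate 1 and 0 without CD48-/lo replicate 4.

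**Figure D1:**
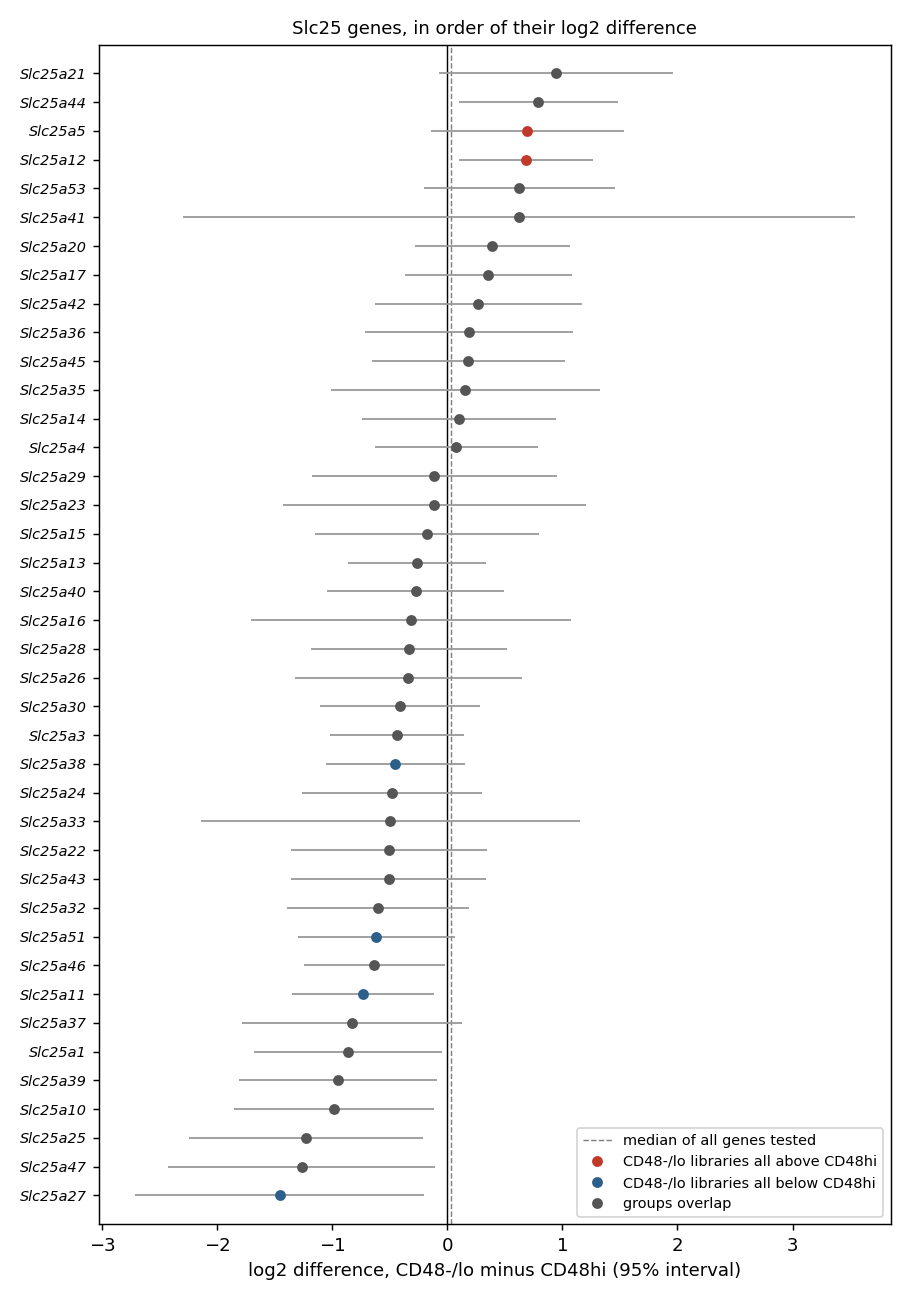
Log2 difference between CD48-/lo and CD48hi MkPs for 40 of the 41 Slc25 genes tested, each point a gene with its 95% interval, ordered from the highest at the top. Red points mark the 2 genes whose CD48-/lo libraries all lie above the CD48hi libraries and blue points the 4 whose CD48-/lo libraries all lie below, and the dashed line is the median of all genes (0.03). Of the points 26 lie below 0, and no gene was called after adjustment.

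The family as a whole took under 1% of the transcriptome in every library. Its genes held 0.430, 0.473 and 0.430% of all counts in CD48-/lo libraries, against 0.462, 0.428, 0.410 and 0.424% in CD48hi libraries. The groups overlapped, with CD48-/lo replicate 3 and CD48hi replicate 1 the highest. The 13 mitochondrially encoded genes held 2.54, 0.469 and 2.83% in CD48-/lo libraries, against 0.134, 0.385, 0.269 and 0.328% in CD48hi libraries. CD48-/lo replicates 1 and 4 thus stood far above the other libraries in mitochondrial transcripts and not in Slc25 transcripts. With all mitochondrial genes left out before scaling, 10 carriers stood at an unadjusted p of 0.05, 0 were called by edgeR, and the median log2 difference was -0.31.

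**Figure D2:**
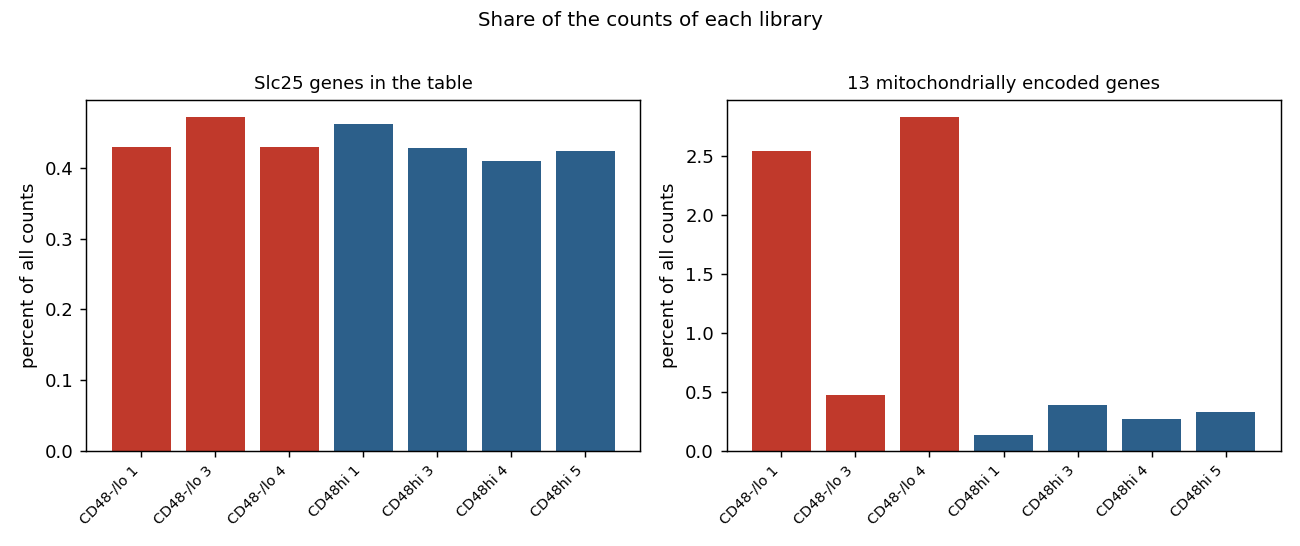
Share of all counts of each library, in percent, held by the 43 Slc25 genes (left) and by the 13 mitochondrially encoded genes (right), 1 bar per library, CD48-/lo in red and CD48hi in blue. The Slc25 share stays between 0.410 and 0.473% in all 7 libraries, while the mitochondrially encoded share reaches 2.54 and 2.83% in CD48-/lo replicates 1 and 4.

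Within the family a few genes held most of the transcripts. Slc25a5, Slc25a3 and Slc25a4 took 62.4, 62.3 and 62.7% of the family's CPM in CD48-/lo libraries, against 62.8, 59.2, 37.1 and 44.8% in CD48hi libraries. CD48hi replicates 4 and 5 were thus the libraries with the smaller share, while CD48hi replicate 1 matched the CD48-/lo libraries. A mean over all libraries above 100 CPM was reached by 9 genes and above 10 CPM by 27, and 3 stayed under 1 CPM.

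The most abundant carriers were those of adenine nucleotides, which move ATP out of the mitochondrion in exchange for ADP. Slc25a5 (ANT2; chromosome X, 36795651 to 36798807, mm10), the form of dividing cells, was the highest of the family per length, at 1032 CPM per kb in CD48-/lo and 638 CPM per kb in CD48hi MkPs. The scaled level was 1646, 1710 and 1740 CPM in the CD48-/lo libraries and 1600, 1422, 614 and 564 CPM in the CD48hi libraries. The CD48-/lo libraries were tightly grouped and all above the CD48hi libraries, of which replicates 1 and 3 lay close below them and replicates 4 and 5 far below. The log2 difference was 0.69 ± 0.38 (SE) with an adjusted p of 0.364 by edgeR, and its 95% interval ran from -0.14 to 1.53. Slc25a4 (ANT1; chromosome 8), the form known from heart and skeletal muscle, was next per length at 165 CPM per kb in CD48-/lo and 156 CPM per kb in CD48hi MkPs. It stood at 350.2, 452 and 359.8 CPM in the CD48-/lo libraries and 568, 309.7, 354 and 236 CPM in the CD48hi libraries, with all CD48-/lo libraries inside the CD48hi range, and its log2 difference of 0.08 ± 0.32 (SE) changed sign when CD48-/lo replicate 3 or CD48hi replicate 5 was left out (edgeR adjusted p = 0.924).

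A pseudogene of Slc25a5, Slc25a5-ps, drew few uniquely aligned reads. Its counts amounted to 0.682 to 0.755% of the Slc25a5 counts in CD48-/lo and 0.713 to 0.864% in CD48hi libraries, and reads that fit both were not counted, so the level of Slc25a5 may be too low in all libraries.

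Phosphate enters with Slc25a3, the carrier that supplies it for ATP synthesis. Slc25a3 (chromosome 10, 91116574 to 91124059) was the next per length at 112 CPM per kb in CD48-/lo and 151 CPM per kb in CD48hi MkPs and was measured at 579, 714 and 569 CPM in the CD48-/lo libraries and 938, 669, 696 and 1057 CPM in the CD48hi libraries. The groups overlapped, with CD48hi replicates 1 and 5 above every CD48-/lo library (log2 difference -0.44 ± 0.26 (SE), adjusted p = 0.404, edgeR). In the same class, Slc25a24 and Slc25a25 are calcium-regulated carriers that exchange ATP-Mg for phosphate and so set the nucleotide pool of the matrix. Slc25a24 (chromosome 3, 109123149 to 109168457) stood at 103, 103 and 90.9 CPM in the CD48-/lo libraries and 90.7, 88.1, 220.1 and 152 CPM in the CD48hi libraries. Replicates 4 and 5 of CD48hi lay above all others, and CD48hi replicates 1 and 3 just below the CD48-/lo libraries (log2 difference -0.48 ± 0.35 (SE), adjusted p = 0.502, edgeR).

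Slc25a25 (chromosome 2, 32414487 to 32451445) had the smallest unadjusted p of the family. It was measured at 6.59, 18.96 and 12.4 CPM in the CD48-/lo libraries and 16.4, 20.7, 41.3 and 40.1 CPM in the CD48hi libraries. CD48hi replicates 4 and 5 were again the highest, and CD48-/lo replicate 3 lay above CD48hi replicate 1, so the groups overlapped. The log2 difference was -1.23 ± 0.46 (SE), with an unadjusted p of 0.0222 and an adjusted p of 0.240 in the edgeR fit over all genes. Naif1 overlaps Slc25a25 on the opposite strand and held 5322 counts over the 7 libraries, against 8760 for Slc25a25. Slc25a23, a paralog of the same kind, and Slc25a41, its relative without calcium-binding domain, were rare, at 1.11 ± 0.160 CPM in CD48-/lo and 1.21 ± 0.544 CPM in CD48hi MkPs for Slc25a23 and 0.352 ± 0.441 CPM in CD48-/lo and 0.230 ± 0.290 CPM in CD48hi MkPs for Slc25a41 (SD, n = 3 and 4).

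**Figure D3:**
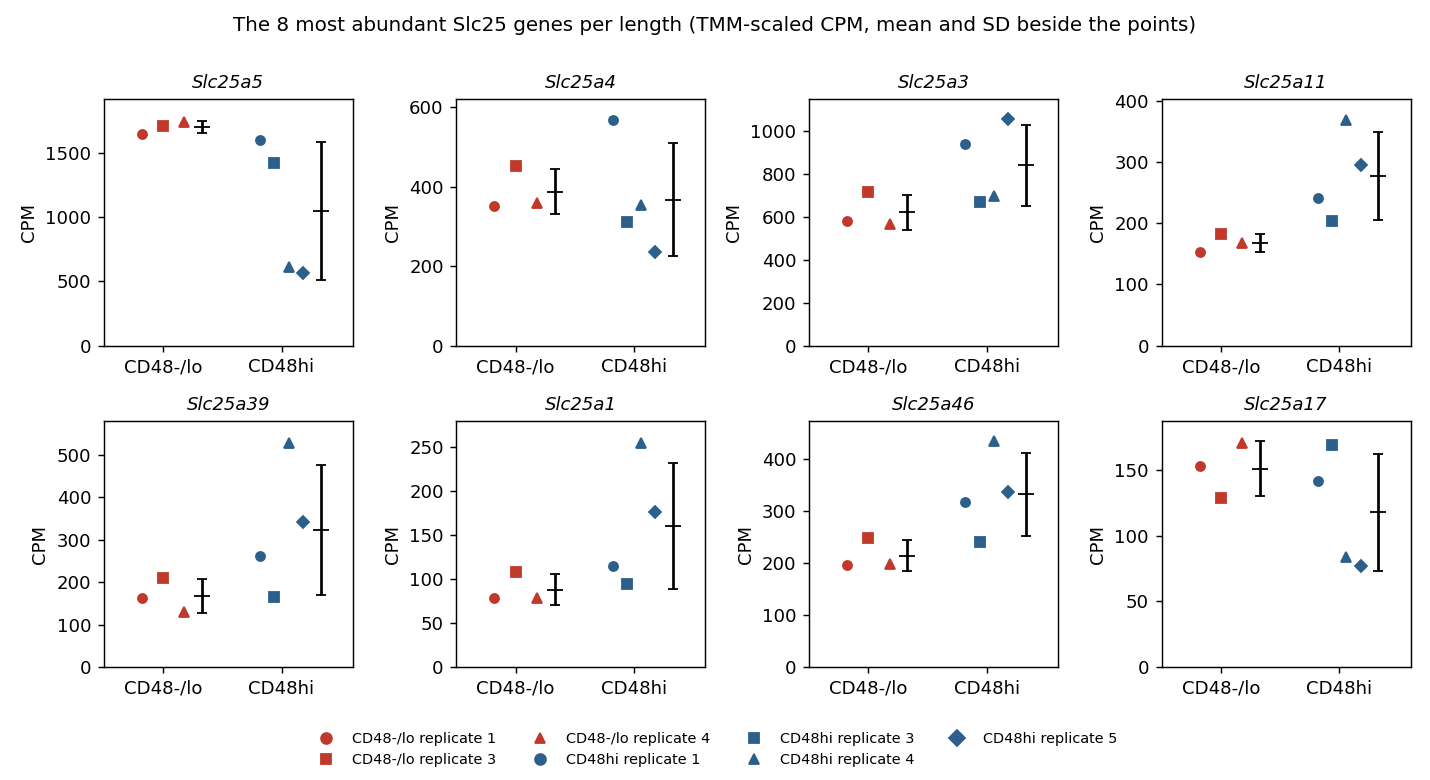
Scaled CPM of the 8 Slc25 genes with the highest mean level per kb over all libraries, 1 panel per gene, CD48-/lo libraries in red at the left and CD48hi libraries in blue at the right, with the mean and SD of each group beside the points and the symbol giving the replicate number. Slc25a5 lies between 1646 and 1740 CPM in CD48-/lo libraries and between 564 and 1600 CPM in CD48hi libraries, while Slc25a11 is lower in every CD48-/lo library.

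The carriers of di- and tricarboxylates include 3 of the 8 genes lower in CD48-/lo MkPs at an unadjusted p of 0.05. Slc25a1 (chromosome 16, 17925223 to 17928219), the citrate carrier that exports citrate for cytosolic acetyl-CoA, was measured at 78.3, 108 and 78.3 CPM in the CD48-/lo libraries and 115, 94.99, 255 and 177 CPM in the CD48hi libraries. Replicates 4 and 5 of CD48hi exceeded all other libraries and the remaining 5 overlapped (log2 difference -0.86 ± 0.37 (SE), adjusted p = 0.273, edgeR). Slc25a10 (chromosome 11, 120491840 to 120499187), which exchanges malate and succinate for phosphate, stood at 21.2, 34.2 and 25.4 CPM in the CD48-/lo libraries and 41.5, 33.4, 93.5 and 45.1 CPM in the CD48hi libraries. CD48hi replicate 4 was the highest by far, and CD48-/lo replicate 3 lay just above CD48hi replicate 3 (log2 difference -0.99 ± 0.39 (SE), adjusted p = 0.254, edgeR).

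Slc25a11 (chromosome 11, 70644196 to 70647479), the oxoglutarate-malate carrier of the malate-aspartate shuttle, was lower in every CD48-/lo library. Its level was 152, 182 and 168 CPM in the CD48-/lo libraries and 242, 204, 369 and 294 CPM in the CD48hi libraries. The highest CD48-/lo and the lowest CD48hi library, both replicate 3, lay close together. The log2 difference of -0.73 ± 0.28 (SE) had a 95% interval of -1.35 to -0.11 and did not pass the adjustment over all genes (adjusted p = 0.242, edgeR). Rnf167 overlaps Slc25a11 on the opposite strand with 39374 counts over the 7 libraries, against 89960 for Slc25a11, and the strand setting of the counting was not given in the sources used here.

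Other genes of this class were low. Slc25a21, the oxoadipate carrier of lysine and tryptophan breakdown, had the largest positive log2 difference of the family in this fit. It stood at 5.14, 11.8 and 11.2 CPM in the CD48-/lo libraries and 2.64, 3.75, 8.36 and 4.78 CPM in the CD48hi libraries, with CD48-/lo replicate 1 inside the CD48hi range (log2 difference 0.94 ± 0.46 (SE), adjusted p = 0.316, edgeR). Slc25a35 averaged 4.51 ± 2.24 CPM in CD48-/lo and 4.05 ± 2.24 CPM in CD48hi MkPs (SD, n = 3 and 4). Slc25a34 failed the filter, with 0 counts in all CD48-/lo libraries, against 11, 8, 0 and 0 counts in CD48hi libraries.

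Aspartate leaves the mitochondrion through Slc25a12 and Slc25a13, paralogous calcium-regulated carriers that exchange it for glutamate and complete the malate-aspartate shuttle. Slc25a12 (chromosome 2, 71271063 to 71367749) was higher in every CD48-/lo library. It was measured at 82.4, 72.9 and 84.98 CPM in the CD48-/lo libraries and 38.1, 46.9, 60.2 and 54.5 CPM in the CD48hi libraries. The gap between the lowest CD48-/lo library and the highest CD48hi library was larger than the SD of either group (80.1 ± 6.36 CPM in CD48-/lo and 49.9 ± 9.57 CPM in CD48hi MkPs, SD, n = 3 and 4). The log2 difference was 0.68 ± 0.26 (SE), with a 95% interval of 0.10 to 1.26, and edgeR did not call it (adjusted p = 0.244).

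Slc25a13 (chromosome 6, 6041218 to 6217173) had a smaller fitted difference, below 0, and was measured at 58.5, 57.5 and 52.9 CPM in the CD48-/lo libraries and 81.4, 48.03, 73.8 and 66.8 CPM in the CD48hi libraries. The groups overlapped (log2 difference -0.26 ± 0.27 (SE), adjusted p = 0.641, edgeR). Per length, Slc25a12 stood at 10.9 CPM per kb in CD48-/lo and 6.80 CPM per kb in CD48hi MkPs, and Slc25a13 at 14.8 CPM per kb in CD48-/lo and 17.8 CPM per kb in CD48hi MkPs.

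The ratio of 2 paralogs within a library does not depend on the scaling between libraries, and 6 such ratios of counts were compared by an exact two-sided permutation test over libraries, whose smallest possible p with 3 against 4 is 0.0571. The ratio of Slc25a12 to Slc25a13 was 1.41, 1.27 and 1.61 in CD48-/lo MkPs, against 0.468, 0.977, 0.815 and 0.816 in CD48hi MkPs. These counts were not divided by gene length (7342 bases for Slc25a12 and 3798 for Slc25a13), so a ratio of 1 does not mark equal levels. Per length Slc25a12 stood below Slc25a13 in both groups, at 10.9 against 14.8 CPM per kb in CD48-/lo MkPs. In CD48hi MkPs it stood at 6.80 against 17.8 CPM per kb. Of the 6 ratios that of Slc25a12 to Slc25a13 alone did not overlap between the groups. The difference of the log2 ratios was 0.94, with the smallest exact permutation p of 0.0571 and an adjusted p of 0.229 over the 6 ratios. Leaving out each library gave 0.71 to 1.07.

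The other ratios overlapped. Slc25a4 over Slc25a5 was 0.213, 0.264 and 0.207 in CD48-/lo MkPs, against 0.355, 0.218, 0.576 and 0.418 in CD48hi MkPs, a log2 difference of -0.71, and only CD48hi replicate 3 fell among the CD48-/lo libraries (exact permutation p = 0.114, adjusted p = 0.229). Slc25a24 over Slc25a25 differed by 0.87 on the log2 scale and was 15.5, 5.42 and 7.33 in CD48-/lo MkPs, against 5.53, 4.25, 5.33 and 3.78 in CD48hi MkPs. CD48hi replicate 1 stood just above CD48-/lo replicate 3 (exact permutation p = 0.114, adjusted p = 0.229). The log2 ratios of Slc25a33 over Slc25a36, Slc25a40 over Slc25a39 and Slc25a37 over Slc25a28 differed by -1.11, 0.62 and -0.39 (exact permutation adjusted p = 0.343, 0.343 and 0.629), and the last of these changed sign to 0.023 without CD48hi replicate 5.

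**Figure D4:**
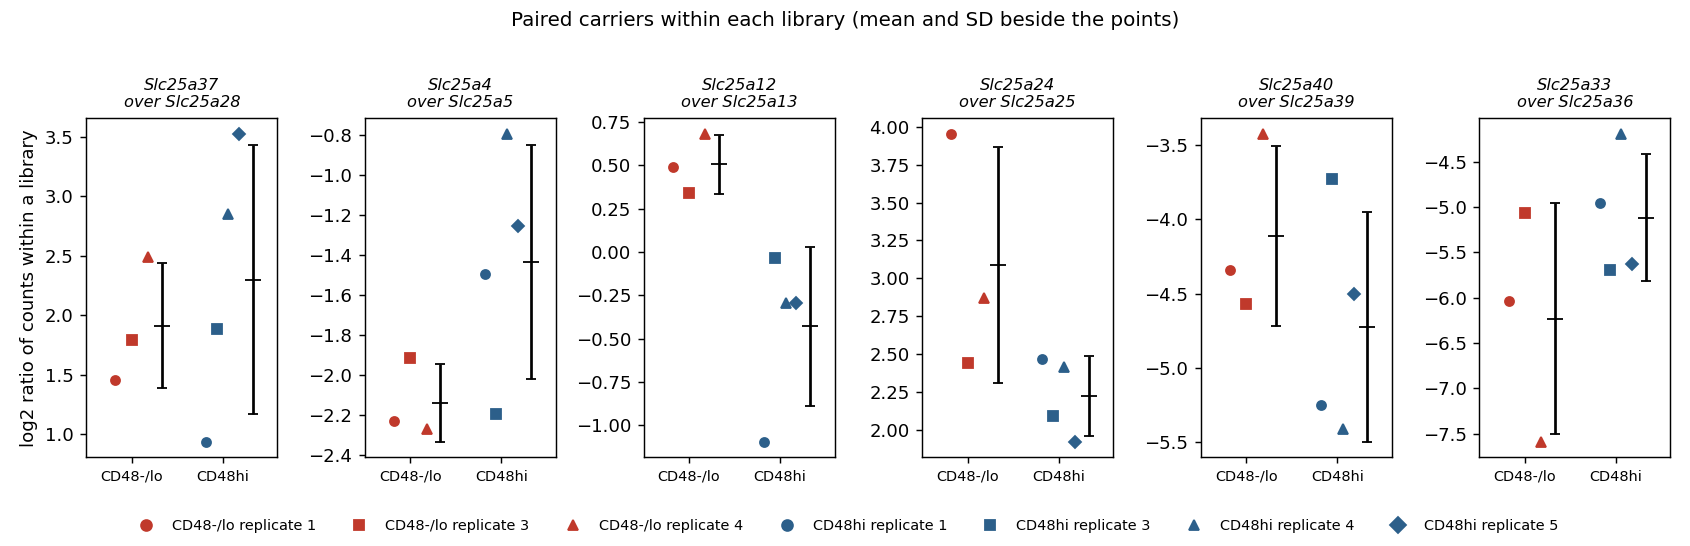
Log2 ratio of the counts of 2 Slc25 genes within each library, 1 panel per pair, with each panel on its own axis, CD48-/lo libraries in red at the left and CD48hi libraries in blue at the right, and the mean and SD of each group beside the points. Slc25a12 over Slc25a13 is the pair whose groups do not overlap, higher in all CD48-/lo than in all CD48hi libraries. Counts were not divided by gene length, so 0 does not mark equal levels of 2 genes.

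Of the other genes grouped here with the amino acid carriers, Slc25a44 and Slc25a47 reached an unadjusted p of 0.05, in opposite directions. Slc25a44 (chromosome 3, 88410498 to 88425139), a carrier of branched-chain amino acids described in brown fat, was measured at 37.1, 24.4 and 34.7 CPM in the CD48-/lo libraries and 19.6, 14.9, 25.6 and 13.99 CPM in the CD48hi libraries. CD48-/lo replicates 1 and 4 were the highest, and CD48-/lo replicate 3 lay just under CD48hi replicate 4 (log2 difference 0.79 ± 0.31 (SE), adjusted p = 0.251, edgeR). Slc25a47 (chromosome 12, 108836046 to 108856815), a carrier best known from liver, was low, at 0.942, 1.74 and 1.05 CPM in the CD48-/lo libraries and 3.47, 1.67, 4.47 and 2.35 CPM in the CD48hi libraries. CD48-/lo replicate 3 and CD48hi replicate 3 were close and in reversed order (log2 difference -1.27 ± 0.52 (SE), adjusted p = 0.263, edgeR).

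Slc25a38 (chromosome 9, 120110374 to 120124504) imports glycine, the substrate of the first step of heme synthesis, and its loss causes sideroblastic anemia in humans. Its level was 20.1, 18.9 and 21.98 CPM in the CD48-/lo libraries and 23.5, 23.1, 32.5 and 31.9 CPM in the CD48hi libraries. All CD48-/lo libraries lay below all CD48hi libraries, with replicate 4 of CD48-/lo next to replicates 1 and 3 of CD48hi, and the log2 difference of -0.45 ± 0.27 (SE) had an interval that includes 0 (-1.06 to 0.16, 95%, adjusted p = 0.410, edgeR). The remaining tested amino acid carriers overlapped between the groups. Slc25a15, the ornithine carrier of the urea cycle, averaged 31.3 ± 9.37 CPM in CD48-/lo and 35.3 ± 19.1 CPM in CD48hi MkPs, Slc25a22, a glutamate carrier, 11.2 ± 1.43 CPM in CD48-/lo and 15.9 ± 7.55 CPM in CD48hi MkPs, and Slc25a29, a carrier of basic amino acids, 6.32 ± 0.728 CPM in CD48-/lo and 6.83 ± 3.60 CPM in CD48hi MkPs (SD, n = 3 and 4). Slc25a45 ranged from 16.8 to 44.97 CPM in CD48-/lo and 16.3 to 32.8 CPM in CD48hi MkPs. Slc25a2, another ornithine carrier, was not tested, and its counts were 0, 2 and 40 in CD48-/lo and 0, 1, 0 and 3 in CD48hi libraries, so that nearly all of them came from CD48-/lo replicate 4.

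Iron for heme and iron-sulfur clusters is imported by the mitoferrins. Slc25a37 (mitoferrin-1; chromosome 14, 69241848 to 69285112), the form of red cell precursors, was measured at 10.4, 18.00 and 16.8 CPM in the CD48-/lo libraries and 13.1, 17.98, 34.4 and 41.5 CPM in the CD48hi libraries. The highest were CD48hi replicates 4 and 5, while CD48hi replicates 1 and 3 lay among the CD48-/lo libraries (log2 difference -0.83 ± 0.43 (SE), adjusted p = 0.346, edgeR). Slc25a28 (mitoferrin-2; chromosome 19, 43663801 to 43674881), the form of other tissues, stood at 3.77, 5.19 and 2.97 CPM in the CD48-/lo libraries and 6.82, 4.85, 4.76 and 3.59 CPM in the CD48hi libraries, with overlapping groups (log2 difference -0.33 ± 0.39 (SE), adjusted p = 0.683, edgeR).

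Slc25a39 (chromosome 11, 102402985 to 102407946), which imports glutathione, was the most abundant of this class per length and was measured at 164, 211 and 129 CPM in the CD48-/lo libraries and 261, 166, 527 and 341 CPM in the CD48hi libraries. CD48hi replicate 4 was the highest, and CD48hi replicate 3 lay within the CD48-/lo range. The log2 difference was -0.95 ± 0.39 (SE), with an adjusted p of 0.260 by edgeR. Its paralog Slc25a40 (chromosome 5, 8422850 to 8454797) stood at 8.06, 8.87 and 12.01 CPM in the CD48-/lo libraries and 6.82, 12.5, 12.3 and 15.04 CPM in the CD48hi libraries, with overlapping groups (log2 difference -0.28 ± 0.35 (SE), adjusted p = 0.711, edgeR). All 4 carriers of iron and glutathione had fitted differences below 0, as did 63.4% of the carriers tested and 48.3% of all genes. Their median log2 difference was -0.58, and the groups overlapped for each of the 4.

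Among 8 carriers tied to cofactors none reached an unadjusted p of 0.05, with fitted differences above 0 for 4 and below 0 for 4. Slc25a51 (chromosome 4, 45395923 to 45408766), the mammalian carrier of mitochondrial NAD, was measured at 56.05, 59.8 and 62.6 CPM in the CD48-/lo libraries and 67.5, 70.3, 91.9 and 135 CPM in the CD48hi libraries. All CD48-/lo libraries lay below all CD48hi libraries, of which replicates 4 and 5 were the highest (log2 difference -0.62 ± 0.31 (SE), adjusted p = 0.327, edgeR). Slc25a32 (chromosome 15, 39091231 to 39112716), which carries folate, stood at 55.4, 74.7 and 67.5 CPM in the CD48-/lo libraries and 88.5, 49.8, 137 and 125 CPM in the CD48hi libraries, and CD48hi replicate 3 was the lowest of all 7 libraries (log2 difference -0.60 ± 0.36 (SE), adjusted p = 0.401, edgeR).

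Slc25a17 (chromosome 15, 81318911 to 81360812), a carrier of the peroxisome for coenzyme A and related cofactors, was measured at 153, 129 and 170.2 CPM in the CD48-/lo libraries and 141, 169, 84.1 and 77.02 CPM in the CD48hi libraries. CD48hi replicates 4 and 5 lay below all other libraries, as they did for Slc25a5, and CD48hi replicates 1 and 3 lay within the CD48-/lo range (log2 difference 0.36 ± 0.33 (SE), adjusted p = 0.596, edgeR). Slc25a26, which imports S-adenosylmethionine, averaged 7.01 ± 3.88 CPM in CD48-/lo and 8.87 ± 2.05 CPM in CD48hi MkPs (SD, n = 3 and 4). Slc25a42, a coenzyme A carrier, averaged 5.05 ± 1.53 CPM in CD48-/lo and 4.19 ± 1.33 CPM in CD48hi MkPs, Slc25a16 3.50 ± 1.13 CPM in CD48-/lo and 4.35 ± 3.66 CPM in CD48hi MkPs and Slc25a53 6.32 ± 2.57 CPM in CD48-/lo and 4.09 ± 0.498 CPM in CD48hi MkPs (SD, n = 3 and 4). The groups overlapped for each of these 4 genes.

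Slc25a20, which exchanges acylcarnitine for carnitine and so feeds fatty acid oxidation, was measured at 88.2, 99.1 and 99.5 CPM in the CD48-/lo libraries and 104, 80.4, 52.4 and 54.6 CPM in the CD48hi libraries. The lowest were CD48hi replicates 4 and 5, and the highest CD48hi replicate 1 (log2 difference 0.39 ± 0.30 (SE), adjusted p = 0.525, edgeR). The pyrimidine nucleotide carriers were uneven in level. Slc25a36 (chromosome 9, 97074961 to 97111157) stood at 66.8, 86.6 and 66.1 CPM in the CD48-/lo libraries and 24.4, 85.4, 57.6 and 89.3 CPM in the CD48hi libraries, and Slc25a33 (chromosome 4, 149744036 to 149774277) at 0.998, 2.58 and 0.324 CPM in the CD48-/lo libraries and 0.771, 1.64, 3.14 and 1.79 CPM in the CD48hi libraries. For Slc25a36, CD48hi replicate 1 was far below the other 6 libraries, and the groups overlapped for both genes (log2 differences 0.19 ± 0.41 and -0.49 ± 0.74 (SE), adjusted p = 0.843 and 0.760, edgeR).

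Slc25a46 (chromosome 18, 31556111 to 31609911) differs from its relatives in sitting in the outer membrane, where it takes part in mitochondrial fission and lipid traffic. It was measured at 195, 249 and 198 CPM in the CD48-/lo libraries and 316, 239.7, 433 and 337 CPM in the CD48hi libraries. CD48-/lo replicate 3 lay above CD48hi replicate 3 and below the other CD48hi libraries (log2 difference -0.63 ± 0.28 (SE), adjusted p = 0.279, edgeR). Slc25a43 averaged 4.43 ± 0.930 CPM in CD48-/lo and 6.31 ± 2.05 CPM in CD48hi MkPs (SD, n = 3 and 4).

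Among the relatives of the uncoupling proteins, Slc25a27 (UCP4; chromosome 17, 43641891 to 43667214), known from brain, had the largest negative log2 difference of the family in this fit. Its few counts amounted to 2.41, 0.763 and 0.991 CPM in the CD48-/lo libraries and 2.59, 2.96, 3.22 and 6.48 CPM in the CD48hi libraries. All CD48-/lo libraries lay below all CD48hi libraries, by a narrow margin between CD48-/lo replicate 1 and CD48hi replicate 1. The log2 difference of -1.46 ± 0.57 (SE) had an adjusted p of 0.248 by edgeR. Slc25a14 (UCP5) averaged 11.7 ± 2.46 CPM in CD48-/lo and 10.8 ± 4.44 CPM in CD48hi MkPs and Slc25a30 10.00 ± 1.17 CPM in CD48-/lo and 13.3 ± 3.32 CPM in CD48hi MkPs (SD, n = 3 and 4), with overlapping groups.

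**Figure D5:**
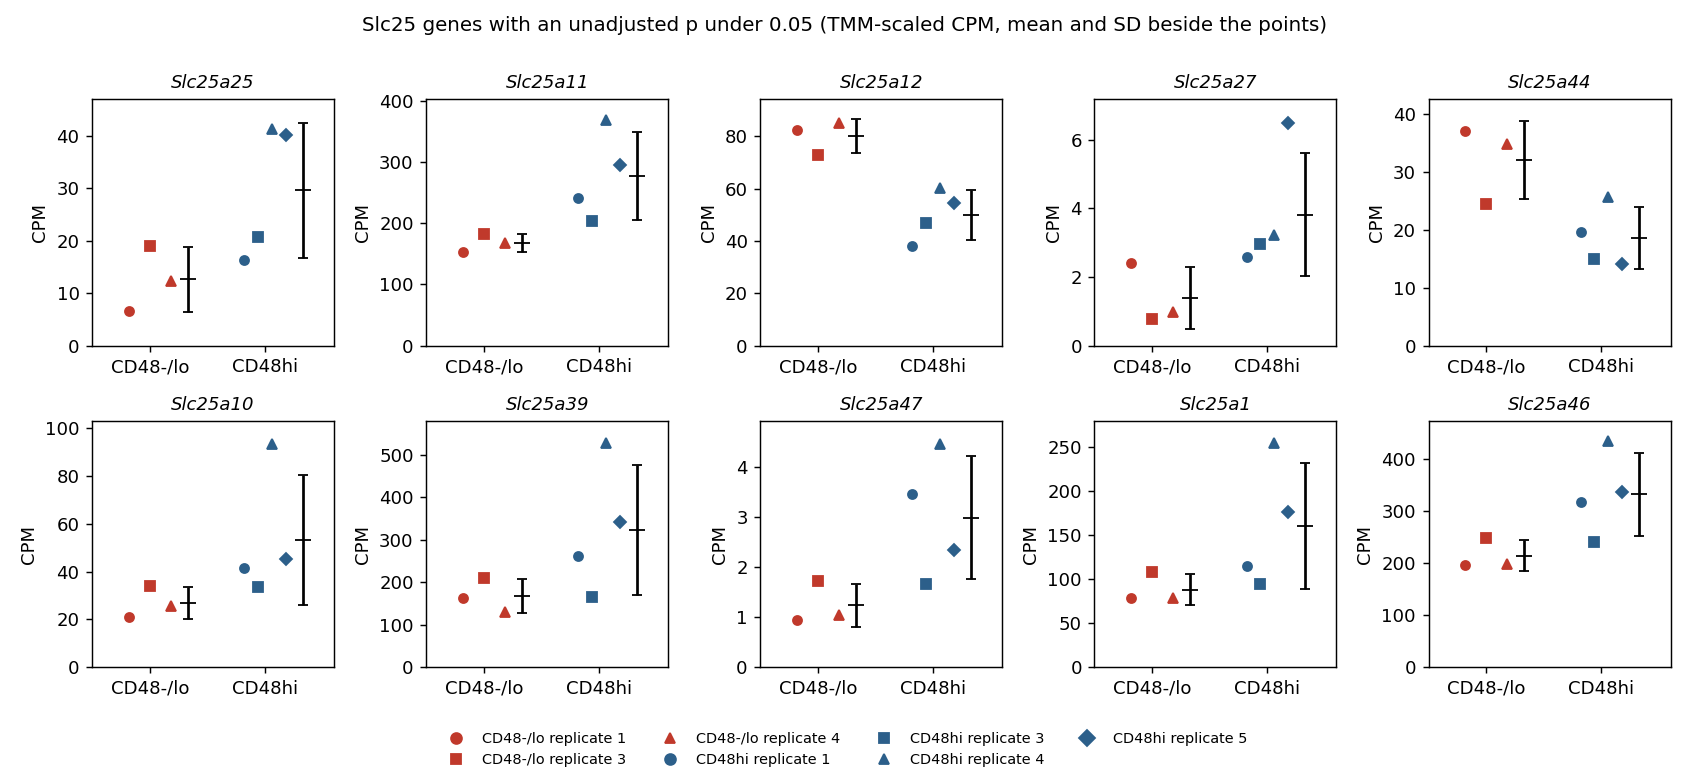
Scaled CPM of the 10 Slc25 genes with an unadjusted edgeR p under 0.05, 1 panel per gene on its own axis, CD48-/lo libraries in red at the left and CD48hi libraries in blue at the right, with the mean and SD of each group beside the points and the symbol giving the replicate number. Slc25a12 and Slc25a44 average higher in CD48-/lo MkPs and the other 8 lower, the groups of Slc25a11, Slc25a12 and Slc25a27 do not overlap, and none of the 10 passed the adjustment over all genes.

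The spread among libraries was itself uneven. On the scale of log2(CPM + 0.5), the SD between libraries was larger in the CD48hi group for 33 of 41 carriers (80.5%), against 67.5% of all genes. The median SD of the carriers was 0.29 in CD48-/lo and 0.52 in CD48hi MkPs, and that of all genes 0.30 and 0.47. For Slc25a5 this SD was 0.041 in CD48-/lo and 0.79 in CD48hi MkPs, and Slc25a53 ran the other way, with 0.53 in CD48-/lo and 0.16 in CD48hi MkPs. As the values above show, replicates 4 and 5 were often the outer CD48hi libraries, high for some carriers (Slc25a1, Slc25a25, Slc25a37) and low for others (Slc25a5, Slc25a17, Slc25a20). Gata2 stood at 221, 313, 688 and 633 CPM in CD48hi replicates 1, 3, 4 and 5, and the other 5 basophil and mast cell markers summed to 42.2, 74.3, 95.7 and 118 CPM, and the part of either in these values was not tested.

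To look for sequence shared by the carriers, the 250 bases before the RefSeq gene start (build GRCm38.p6) were read for the 32 of 43 members that matched by symbol. The promoters of the 2 carriers that were higher in every CD48-/lo library, Slc25a5 and Slc25a12, were chosen with those values known and are shown first, since both held the letters bound by GATA factors (AGATAA or TGATAA, either strand), and the citrate carrier Slc25a1 and the phosphate carrier Slc25a3 follow as promoters with an E-box (CACGTG) and an ETS motif (CCGGAAG). Each runs 5′ to 3′ on the strand of the gene, with the motif in capitals, and TTATCT and TTATCA are the GATA letters read from the other strand.
Slc25a5, chrX:36795347-36795596, plus strand: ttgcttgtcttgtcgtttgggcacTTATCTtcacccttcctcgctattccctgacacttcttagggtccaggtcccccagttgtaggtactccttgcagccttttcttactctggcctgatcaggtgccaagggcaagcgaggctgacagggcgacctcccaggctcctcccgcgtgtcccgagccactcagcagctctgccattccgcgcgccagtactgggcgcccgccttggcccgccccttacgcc
Slc25a12, chr2:71367756-71368005, minus strand: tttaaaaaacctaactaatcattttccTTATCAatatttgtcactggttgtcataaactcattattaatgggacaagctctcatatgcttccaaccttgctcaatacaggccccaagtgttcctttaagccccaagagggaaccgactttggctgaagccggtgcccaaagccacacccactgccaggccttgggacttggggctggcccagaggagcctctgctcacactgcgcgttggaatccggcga
Slc25a1, chr16:17928220-17928469, minus strand: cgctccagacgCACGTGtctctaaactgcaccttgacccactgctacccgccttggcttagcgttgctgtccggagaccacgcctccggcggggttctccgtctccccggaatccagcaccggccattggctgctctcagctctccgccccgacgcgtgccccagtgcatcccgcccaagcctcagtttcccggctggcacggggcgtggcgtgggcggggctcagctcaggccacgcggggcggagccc
Slc25a3, chr10:91123968-91124217, minus strand: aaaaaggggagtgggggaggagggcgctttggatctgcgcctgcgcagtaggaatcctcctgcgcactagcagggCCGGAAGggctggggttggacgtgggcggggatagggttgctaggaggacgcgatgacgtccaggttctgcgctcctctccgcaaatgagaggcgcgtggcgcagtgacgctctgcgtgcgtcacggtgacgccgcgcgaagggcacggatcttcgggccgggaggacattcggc
The motifs begin 226, 223, 239 and 175 bases before the start in the promoters of Slc25a5, Slc25a12, Slc25a1 and Slc25a3.

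Over the 32 promoters, the GATA letters were found in 3 (9.38%; Slc25a5, Slc25a12 and Slc25a53), against 18.8% of the same windows of 27025 genes. The E-box was found in 6 (18.8%; Slc25a1, Slc25a13, Slc25a14, Slc25a15, Slc25a33 and Slc25a36), against 6.86%, and the ETS letters in 5 (15.6%; Slc25a3, Slc25a4, Slc25a17, Slc25a20 and Slc25a38), against 7.83%. The exact letters GCGCATGCG, 1 form of the site of NRF1, a regulator of nuclear genes for mitochondrial proteins, were in 0 of the 32, against 1.64% of all. Other forms of the NRF1 site were not searched, so this count does not show that the promoters lack such sites. These matches are descriptions of letters and were not tested, and the motifs do not overlap one another in their letters.

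The genes that insert carriers into the inner membrane were counted from a list of the TIM22 route. Of 13 genes 0 were called by edgeR and 1 by DESeq2, which called 5.52% of all genes, and the median log2 difference was 0.00. At an unadjusted p of 0.05 (edgeR) 2 were higher and 1 lower, against 8.37 and 8.87% of all genes. The gene of this list that DESeq2 called was Timm10, a small chaperone that escorts carriers across the space between the membranes. Timm10 stood at 57.6, 15.5 and 57.5 CPM in the CD48-/lo libraries and 9.52, 24.2, 11.01 and 9.11 CPM in the CD48hi libraries. CD48-/lo replicates 1 and 4, the libraries with the most mitochondrial transcripts, were far above the rest, and CD48-/lo replicate 3 fell inside the CD48hi range (log2 difference 1.69 ± 0.50 (SE), adjusted p = 0.180 by edgeR and 0.0266 by DESeq2). Agk, a subunit of the TIM22 translocase, was higher in every CD48-/lo library at 55.6, 67.1 and 65.4 CPM in the CD48-/lo libraries and 31.00, 50.5, 26.4 and 23.3 CPM in the CD48hi libraries, with a log2 difference of 0.94 ± 0.32 (SE) and an adjusted p of 0.211 (edgeR). Tomm40, the pore of the outer membrane, was the gene lower at an unadjusted p of 0.05, with a log2 difference of -0.78 ± 0.34 (SE) and an adjusted p of 0.275 (edgeR).

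Other transporters of the mitochondrial membranes, from the pyruvate carrier and the porins to the calcium uniporter, were counted in the same way. Of 22 genes 0 were called by edgeR and 1 by DESeq2 (Sfxn5), which called 5.52% of all genes, and the median log2 difference was -0.19. Sfxn5 was rare, at 0.207, 0.0572 and 0.0607 CPM in the CD48-/lo libraries and 0.802, 0.680, 0.0770 and 3.10 CPM in the CD48hi libraries. Its groups overlapped. At an unadjusted p of 0.05 (edgeR) 0 were higher and 4 lower, against 8.37 and 8.87% of all genes. Mcu, the pore of the calcium uniporter, was measured at 26.4, 33.7 and 18.3 CPM in the CD48-/lo libraries and 23.7, 33.2, 118 and 89.5 CPM in the CD48hi libraries, with CD48hi replicates 4 and 5 far above all others (log2 difference -1.34 ± 0.54 (SE), adjusted p = 0.255, edgeR). Of 12 tested genes of mitochondrial biogenesis edgeR called 0 and DESeq2 1 (Polg, the polymerase of mitochondrial DNA), against 5.52% of all genes by DESeq2. Polg, lower in CD48-/lo MkPs on average, stood at 27.1, 17.7 and 12.3 CPM in the CD48-/lo libraries. In the CD48hi libraries it stood at 17.7, 33.5, 95.1 and 78.0 CPM, and the groups overlapped. For the whole list the counts were as follows. At an unadjusted p of 0.05 (edgeR) 0 were higher and 2 lower (8.37 and 8.87% of all genes), with a median log2 difference of -0.27. Carrier relatives with other names were also not called by edgeR, with log2 differences of -0.38 for Ucp2, an uncoupling protein of blood cells, 0.25 for Mtch1 and 0.20 for Mtch2, outer membrane relatives of the family.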

How the data were processed

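RNA of 7 sorted MkP libraries was primed on poly(A) tails, amplified by template switching, tagmented and sequenced. According to the study's methods and the submitters' processing notes, the authors aligned reads to mm10 with GSNAP (2020-12-16) and Ensembl 98 splice sites, and featureCounts (2.0.1) assigned those with a unique alignment to genes. The deposited table holds these raw counts, with no normalization, and a gene length in bases. Per-gene totals start at 11, so rarer genes were not seen here. Normalised and transformed tables were left out. The strand setting of the counting was not given in the sources used here.

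Counts were analysed with edgeR 4.0.16 (R 4.3.3): filterByExpr kept 16653 genes with 99.95% of counts, libraries were scaled by TMM, and CD48-/lo was tested over CD48hi with the quasi-likelihood F test, no covariate, a prior count of 0.125 and Benjamini-Hochberg adjustment (threshold 0.05). The study's own method, DESeq2, was run as version 1.42.0 on the same genes as an alternative, and limma 3.58.1 (voom with quality weights) as another. The test was tried on simulated data before use, and the share of changes it recovered is not reported here. Ratios were log2 of counts plus 1, compared by exact permutation (scipy 1.17.1). Library pairs had Spearman correlations of 0.923 to 0.975 across genes, and none was treated as a duplicate. Intervals cover the spread between libraries.

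Groups came from the sample labels. One member enters the counts and is not reported here by its values. Members and lists were chosen with earlier results of these data known. Values in every library are given for Slc25 genes with an unadjusted edgeR p under 0.05 and the 8 genes highest per length. They are also given for the genes of the 6 ratios and Slc25a3, Slc25a38, Slc25a51, Slc25a1 and Slc25a32. Slc25a20, Slc25a21, Timm10, Agk, Mcu, Sfxn5 and Polg were chosen for this after their values were seen. Alternatives were other scaling, filters, thresholds and tools, added counts in the ratios, mitochondrial genes left out, each library left out, and the replicate number as a block. Promoters are from RefSeq (GRCm38.p6), and gene coordinates are those of the table (mm10).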

Additional observations from a re-analysis of the deposited data

Results flagged for a closer look

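In the 4 CD48hi libraries of each Slc25 gene and each of the 6 ratios, the highest or lowest value was set against the other 3 by its gap relative to the whole range (Dixon's criterion at 95%). Of 49 sets of values examined 2 stood out, and chance flags about 1 in 20. Slc25a27 reached 6.48 CPM in CD48hi replicate 5, where the other CD48hi libraries had 2.59, 2.96 and 3.22 CPM. That library is the highest of the upper group, so leaving it out could not make the groups overlap. Their separation rests on 2.41 CPM in CD48-/lo replicate 1 against 2.59 CPM in CD48hi replicate 1. Slc25a41 reached 0.662 CPM in CD48hi replicate 3, where the other CD48hi libraries had 0.0463, 0.0963 and 0.114 CPM, and its CD48-/lo values of 0.848, 0.210 and 0 CPM span the same range.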

How the results depend on the processing

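The number of Slc25 genes called was 0 under every alternative run. The looser threshold, an adjusted p of 0.1, was applied to the main edgeR fit only. DESeq2 gave adjusted p-values under 0.1 to Slc25a25 (0.0781), Slc25a11 (0.0909) and Slc25a27 (0.092). Voom did so for more carriers, with 0.0549 the lowest (Slc25a25). The number of all genes called was 32 and moved to 57 with RLE scaling, 10 with no filter on low counts, 64 with at least 1 CPM in 3 libraries, 918 with DESeq2 and 393 with voom, and to 1 to 72 when 1 library was left out. The number of carriers at an unadjusted p of 0.05 was 10, against 17 with voom and 0 to 11 when 1 library was left out. Their median log2 difference was -0.31, against -0.23 with library totals and -0.45 to -0.16 when 1 library was left out. Deviations from the group means did not go together in same-numbered libraries (correlations of -0.152, -0.265 and -0.086 for numbers 1, 3 and 4). The labels do not say whether a shared number means a shared mouse or sort. With so few libraries these correlations cannot decide it. With the replicate number as a block, using 3 libraries of each group, 29 genes were called, 1 carrier stood at an unadjusted p of 0.05, and the log2 difference changed sign to -0.041 for Slc25a4, 0.13 for Slc25a15, 0.079 for Slc25a29, 0.18 for Slc25a16 and -0.59 for Slc25a41. With voom it did so for Slc25a29 (0.041), Slc25a23 (0.15) and Slc25a41 (-0.20).

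Of 613 values of single carriers under the alternatives 29 reversed, in 12 genes, and 29 genes had none. Leaving out 1 library at a time gave log2 differences of -0.23 to 0.35 for Slc25a45, -0.15 to 0.39 for Slc25a36, -0.41 to 0.079 for Slc25a29, -0.33 to 0.081 for Slc25a23, -0.51 to 0.18 for Slc25a15, -0.20 to 0.29 for Slc25a14, -0.39 to 0.57 for Slc25a35, -0.68 to 0.40 for Slc25a16, -0.20 to 0.30 for Slc25a4, -1.11 to 1.20 for Slc25a41, -0.057 to 0.48 for Slc25a42 and -0.88 to 0.038 for Slc25a26. The log2 ratio of Slc25a37 over Slc25a28 then differed by -0.84 to 0.023. The cause of these changes was not tested. Slc25a34 and Slc25a2 were too low in most libraries to test.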
